A study of Mus musculus with 12 samples.

Results

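The genes of the AMPA receptor subunits (Gria1, Gria2, Gria3 and Gria4) and of the kainate receptor subunits (Grik1, Grik2, Grik3, Grik4 and Grik5) were followed in Pdgfra/GFP+ cells of the embryonic and early postnatal mouse brain and spinal cord. Members were chosen by name, as every subunit gene of these families, and found in the expression table through their Ensembl identifiers. They are 9 of the 47069 genes listed, 4 of them AMPA and 5 kainate subunits. The cells were sorted by fluorescence from Pdgfra-H2BGFP mice, a knock-in line in which the promoter of Pdgfra, a receptor gene that marks oligodendrocyte precursor cells (OPCs), drives a nuclear GFP. Total RNA was sequenced from 12 libraries in 4 groups of 3, namely brain at E13.5, spinal cord at E13.5, P7 brain and P7 spinal cord (cord below). All groups share the same heterozygous knock-in, and none of them carries an unmodified Pdgfra locus on both chromosomes. Per the study's methods, "brain" is forebrain, a library is a pool of cells from several animals, and GFP lasts into early oligodendrocyte differentiation, so the sort is wider than OPCs. In the study's single-cell data no OPC cluster was present at E13.5. The E13.5 cells were described there as neural progenitors and as cells related to pericytes and to vascular and leptomeningeal cells. By that account the ages differ in their mix of cells. E13.5 tissue was dissociated mechanically and P7 tissue with papain, and age and dissociation therefore cannot be told apart. The comparisons ask how subunit expression differs between ages within a region, between regions within an age, and whether the region difference changes with age.

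AMPA and kainate receptors are ligand-gated cation channels that open when glutamate binds, and each channel is an assembly of subunits from 1 family. OPCs carry both kinds and receive glutamatergic synapses from neurons. Among AMPA subunits, GluA2 (Gria2) sets the calcium permeability of the channel: an adenosine in its pore-loop codon is edited by the deaminase ADAR2 (Adarb1), which turns a glutamine into an arginine. Among kainate subunits, GluK1 to GluK3 (Grik1 to Grik3) form channels of their own, whereas GluK4 and GluK5 (Grik4 and Grik5) bind glutamate with high affinity and need one of the former to make a working channel. Auxiliary proteins such as the TARPs (Cacng genes) for AMPA receptors and NETO proteins for kainate receptors control trafficking and gating.

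The coding sequence around that pore-loop codon is shown because it holds the letter on which the role of Gria2 turns and because it shows how near the subunits stand to each other, which matters for counting reads. Each window holds 63 coding bases, read 5′ to 3′ on the coding strand from the GENCODE M21 transcripts, with the pore-loop glutamine codon in capitals.
Gria1: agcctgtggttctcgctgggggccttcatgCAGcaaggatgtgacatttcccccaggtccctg
Gria2: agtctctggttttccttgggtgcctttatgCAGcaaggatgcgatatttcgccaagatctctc
Gria3: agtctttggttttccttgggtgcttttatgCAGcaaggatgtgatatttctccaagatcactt
Gria4: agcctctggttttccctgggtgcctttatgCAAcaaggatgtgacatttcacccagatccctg
Grik2: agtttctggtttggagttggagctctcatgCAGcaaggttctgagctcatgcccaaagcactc
Grik3: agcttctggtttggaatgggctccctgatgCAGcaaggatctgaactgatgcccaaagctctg
Grik5: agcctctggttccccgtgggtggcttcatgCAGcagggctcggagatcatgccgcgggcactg
The codon read CAG in the genome for 8 subunits and CAA for Gria4. In Gria2 it is codon 607, at chr3:80706911-80706913 on the minus strand of mm10, in an exon of the coding region. In Grik3 it is codon 623, at chr4:125691207-125691209 on the plus strand. The windows of Gria2 and Gria3 matched at 57 of 63 bases, those of Gria1 and Gria4 at 55 of 63, and those of Gria2 and Grik3 at 42 of 63. Over whole transcripts, the longest stretch shared exactly by any pair of subunits was 59 bases (Gria3 and Gria4), against reads of greater length in the library protocol. No gene on the opposite strand overlapped an exon of a subunit in the annotation. On the same strand, small RNA genes shared 111 exon bases with Gria2, 85 with Gria3, 19 with Gria4 and 59 with Grik4, and the mean level counted for these small genes was at most 0.314 CPM. Values below are sums over a gene, so editing of the codon and splice forms were not measured.

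Between 12566345 and 38790312 reads were recovered per library, and a subunit was covered by 74 reads (Grik1) to 41487 reads (Gria2) in a library, so no subunit was near the limit of detection. Levels are CPM (reads scaled to a common library size) as the authors deposited them, after a correction of each library size by a factor. E13.5 cord replicate 3 stood apart: its factor was 0.472, against 0.955 to 1.20 in the other libraries, and its log2 ratios to its fellow replicates had an SD of 0.651 and 0.629 over 5717 deeply covered genes. In both P7 groups replicates 1 and 2 were closer to each other (SD 0.0687 in brain and 0.0747 in cord) than to replicate 3 (0.220 to 0.243), although they differed by more than counting noise. Separate libraries of 1 pool could do so too, and whether these replicates came from separate pools could not be told from the values. If they did not, P7 groups hold 2 independent samples and the P7 errors given for n = 3 are too small. The study's methods describe 3 pooled biological replicates per age and region. With the deposited scaling the median gene moved by -0.19 (log2) from E13.5 to P7 in brain, by 0.12 in cord, and lay at -0.19 for brain over cord at P7. With TMM scaling these medians lay at -0.0092, 0.064 and 0.0086. Pdgfra itself ranged from 341 to 787 CPM at E13.5 and from 2014 to 3402 CPM at P7. Markers of other cells were also found, and their part in the results below was not tested. The summed level of 9 neuron markers was 784 to 1057 CPM at E13.5 and 475 to 562 CPM at P7, and Tubb3 alone went from 232.0 to 405.1 CPM to 17.7 to 40.8 CPM. The group means of Tubb3, Dcx, Stmn2, Syt1, Rbfox3 and Nefl were lower at P7 in both regions, whereas those of Snap25, Gap43 and Elavl3 were higher, with Gap43 at 37.3 to 49.8 CPM and 66.9 to 98.1 CPM. Summed over 7 OPC markers the level was 526 to 1451 CPM at E13.5 and 9010 to 9712 CPM at P7. The P7 sum hides opposite differences: Pdgfra was higher in brain, and Sox10, Olig2 and Gpr17 were higher in cord. Gpr17 was at 2720 to 3172 CPM in P7 brain and 3741 to 3799 CPM in P7 cord. Cspg4, Olig1 and Lhfpl3 overlapped between the P7 regions. Summed over 6 markers of radial glia and astrocytes the level was 180 to 575 CPM at E13.5 and 624 to 1124 CPM at P7, and over 4 of microglia 3.38 to 42.7 CPM in all libraries. That of 6 vascular and leptomeningeal markers (such as Col1a1) was 2581 to 5791 CPM at E13.5 and 645 to 1302 CPM at P7. That of 8 markers of differentiating oligodendrocytes (such as Mag and Mbp) was 34.9 to 88.0 CPM at E13.5, 1926 to 4533 CPM in P7 brain and 20387 to 27366 CPM in P7 cord, with Opalin at 0 in all 3 libraries of E13.5 cord. In bulk libraries, fewer cells that express a gene and less of its RNA per cell cannot be told apart.

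**Figure D1:**
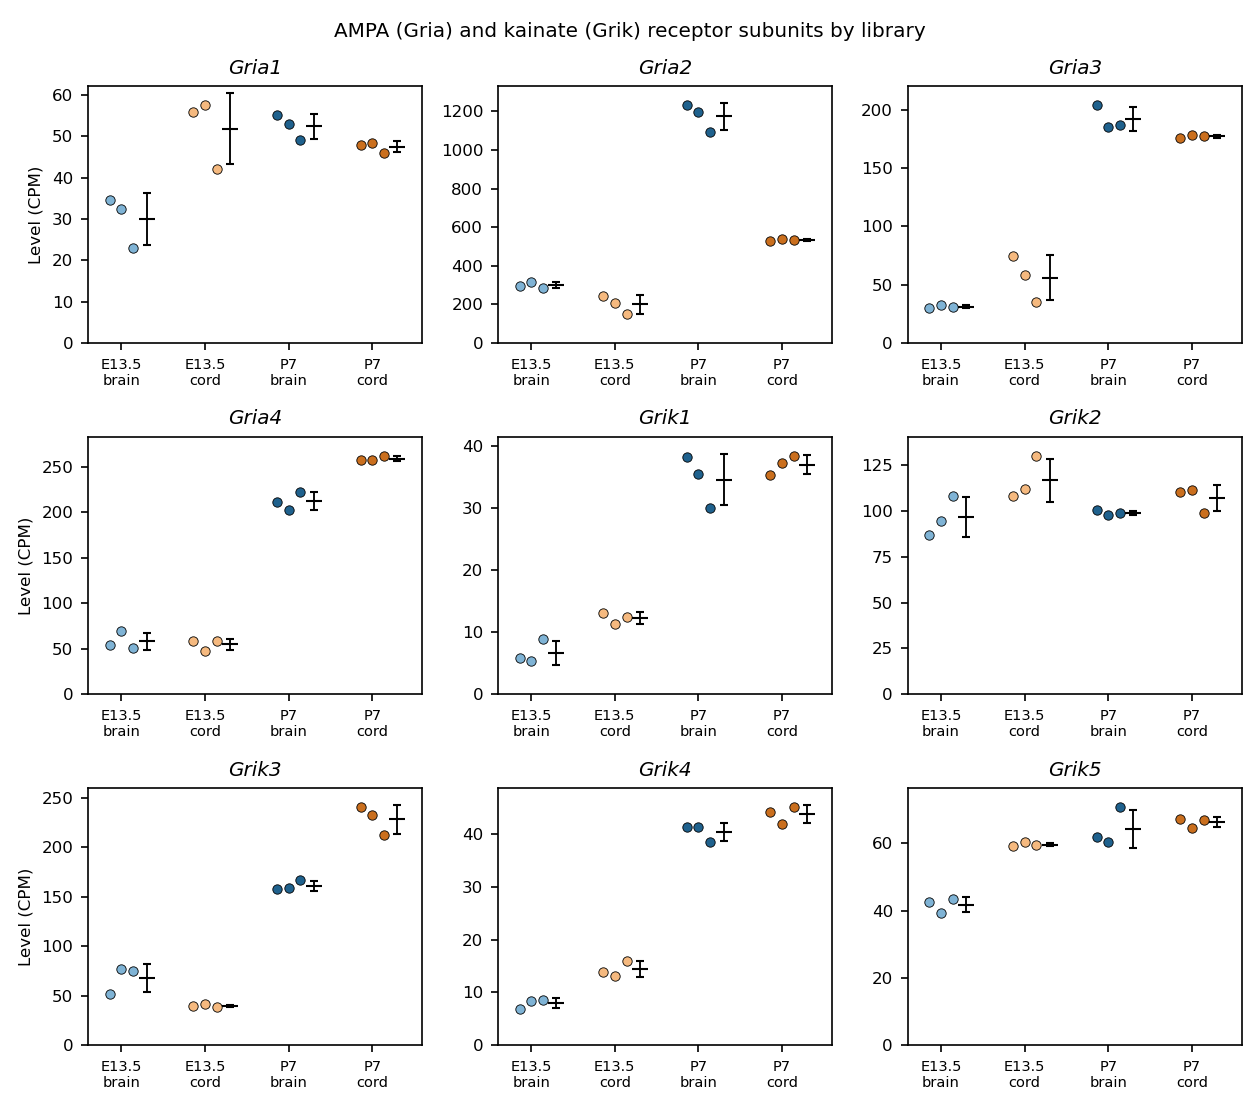
Level of each AMPA (Gria) and kainate (Grik) subunit in CPM on linear axes starting at 0. Each point is 1 library, and the bar beside the points gives the mean and SD of the 3 libraries of a group. Gria2 reached 1095 to 1233 CPM in P7 brain and 528 to 540 CPM in P7 cord, while Grik2 stayed between 86.8 and 130.1 CPM throughout.

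To compare levels between genes, CPM were divided by the length of each gene's exons in kb (CPM per kb). On this scale Gria2 led the 9 subunits in E13.5 brain at 19.3, more than Gria4 at 9.16, and its range did not overlap any other. Below it, Gria4, Grik5 (8.08), Grik3 (7.57) and Grik2 (7.30) overlapped with their neighbours in the order, and Grik4 (1.33) and Grik1 (0.994) were lowest and overlapped each other. In E13.5 cord Gria2 (12.9) overlapped Grik5 (11.5), the subunit in second place, and Grik2, Gria4, Gria1, Gria3 and Grik3 followed with overlapping ranges from 8.82 down to 4.40. At P7 fewer neighbours in the order overlapped than at E13.5, in both regions. In P7 brain the order was Gria2 (75.6), Gria4 (33.6), Gria3 (19.5), Grik3 (17.9), Grik5 (12.4), Gria1 (8.68), Grik2 (7.48), Grik4 (6.79) and Grik1 (5.14), and no neighbours overlapped. In P7 cord Gria4 (41.0) stood above Gria2 (34.3), followed by Grik3 (25.4) and Gria3 (18.0). The order depends on the length used. With the longest transcript as the length, Gria2 was at 51.4 and Gria4 at 47.6 in P7 cord, again without overlap, and Gria3 (34.1) stood above Grik3 (25.4). In P7 brain Gria2 still led, Gria4 (39.0) and Gria3 (36.9) then overlapped, and Gria1 and Grik1 were level at 9.46.

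The make-up of each family is the share of its summed CPM per kb that a subunit holds. Gria2 held 52.9% ± 2.18 (SD, n = 3) of the AMPA sum in brain at E13.5 and 55.0% ± 1.74 at P7, but 35.7% ± 2.52 in cord at E13.5 and 33.9% ± 0.217 at P7. Its share was thus higher in brain than in cord at both ages, with no overlap between libraries, and within a region the ages differed by less than the SD of the E13.5 libraries. Gria1, the subunit of many forebrain synapses, went from 13.51% ± 2.23 to 6.32% ± 0.161 in brain and from 24.0% ± 2.09 to 7.77% ± 0.230 in cord. Gria4 held 24.9% ± 2.10 and 24.5% ± 1.77 in brain, and 24.7% ± 5.72 and 40.6% ± 0.393 in cord. In the kainate family Grik3 held 29.8% ± 3.95 in E13.5 brain, 15.2% ± 0.945 in E13.5 cord, 36.0% ± 0.634 in P7 brain and 42.9% ± 1.53 in P7 cord, so that the region with the larger share changed with age. Grik2 went from 28.9% ± 0.770 to 15.0% ± 0.241 of the sum in brain and from 30.4% ± 1.96 to 13.6% ± 0.574 in cord. The high-affinity pair Grik4 and Grik5 together held 37.4%, 48.1%, 38.6% and 34.1% in E13.5 brain, E13.5 cord, P7 brain and P7 cord. The AMPA sum was 1.46 ± 0.222 times the kainate sum in E13.5 brain, 1.24 ± 0.252 in E13.5 cord, 2.76 ± 0.123 in P7 brain and 1.71 ± 0.0580 in P7 cord. Shares are given as a description and were not tested.

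**Figure D2:**
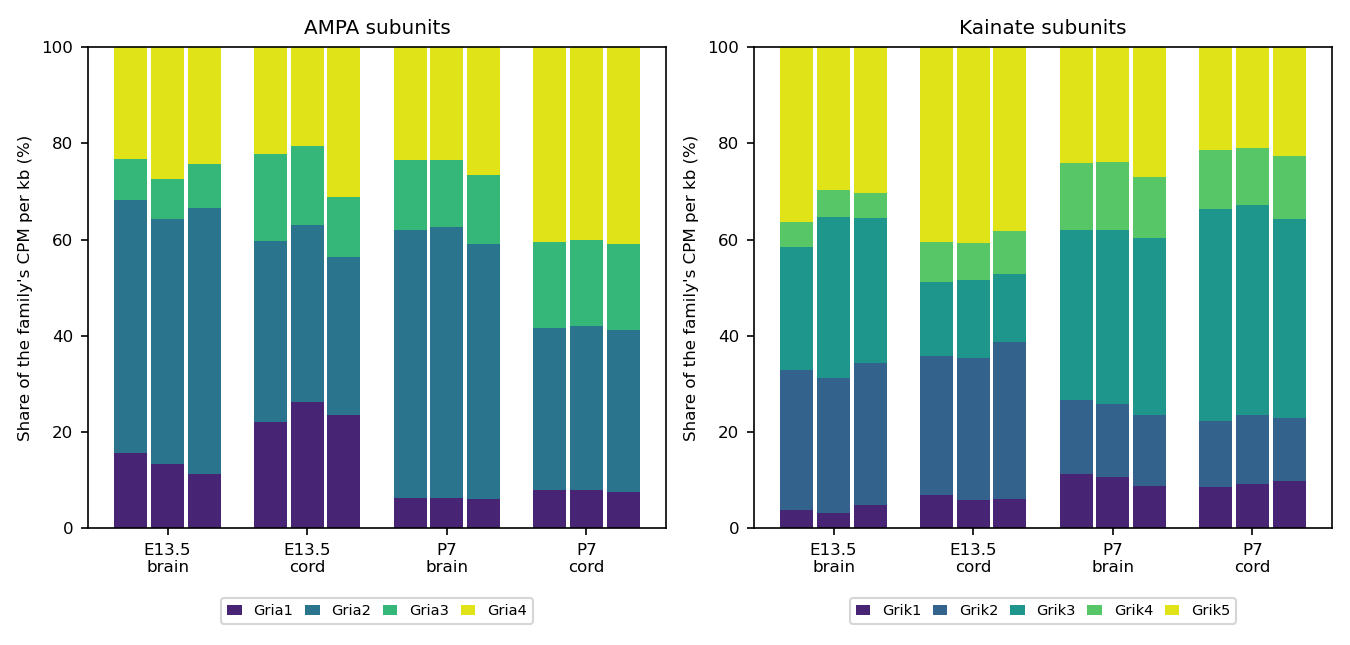
Share of each subunit in its family's summed CPM per kb, in percent, with 1 stacked bar per library in the order of replicates 1, 2 and 3. Gria2 made up 50.9 to 56.3% of the AMPA sum in the 6 brain libraries and 32.8 to 37.5% in the 6 cord libraries.

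Between E13.5 and P7 in brain, 6 of the 9 subunits rose and none fell, where a call is an adjusted p under 0.05 (limma on log2(CPM + 0.5), Benjamini-Hochberg over 18319 genes) with more than a 2-fold change. Over all genes tested, 27.7% were called in this comparison and 11% were called higher at P7. The 6 were Gria2, Gria3, Gria4, Grik1, Grik3 and Grik4. The median difference of the 9 subunits was 1.88, against -0.19 over all genes tested. The same 6 subunits rose in cord and none fell, where 35.1% of genes were called and 16.9% were called higher at P7, and the median of the 9 was 1.56 against 0.12. The remaining Gria1, Grik2 and Grik5 were not called in either region.

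Among AMPA subunits, Gria2 stood at 296.8, 315.9 and 287.3 CPM in the E13.5 brain libraries and at 1233, 1195 and 1095 CPM in P7 brain. It rose by 1.97 ± 0.15 (log2, SE; 3.91-fold, adjusted p = 2.68e-07). In cord it went from 243.6, 206.4 and 149.8 CPM to 527.8, 539.7 and 532.5 CPM, a rise of 1.44 ± 0.15 (2.72-fold, adjusted p = 2.87e-06). In both regions every P7 library lay above every E13.5 library, and E13.5 cord replicate 3 was the lowest of all.

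Gria3, which encodes a subunit that pairs with GluA2 in many neurons, was at 30.1, 32.9 and 30.6 CPM in E13.5 brain and at 204.2, 185.0 and 187.3 CPM in P7 brain. Its rise of 2.60 ± 0.19 (6.07-fold, adjusted p = 1.68e-07) was the largest among the 9 subunits in brain. In E13.5 cord its libraries were spread over 74.3, 58.6 and 35.6 CPM, whereas those of P7 cord were at 176.3, 178.3 and 177.4 CPM (1.71 ± 0.19, adjusted p = 4.67e-06). The wide spread at E13.5 came with replicate 3 at the low end, and the rise was 1.42 without that library.

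Gria4, a subunit with fast kinetics, was at 53.4, 68.8 and 51.1 CPM in E13.5 brain and at 210.9, 202.7 and 222.6 CPM in P7 brain (1.88 ± 0.12, adjusted p = 4.10e-08). In cord it went from 58.5, 47.2 and 57.9 CPM to 257.2, 257.4 and 261.6 CPM, a rise of 2.24 ± 0.12 (4.73-fold, adjusted p = 5.19e-09) that was the largest of the AMPA subunits there. Libraries of the 2 regions overlapped at E13.5, and those at P7 did not overlap with them.

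Gria1 differed from its family. In brain its libraries were at 34.6, 32.5 and 22.9 CPM at E13.5 and at 55.1, 53.0 and 49.2 CPM at P7, a difference of 0.82 ± 0.15 that had an adjusted p of 0.000463 but fell short of 2-fold. With TMM and with median-ratio scaling the difference was 1.01 in both cases and was called. In cord Gria1 was at 55.9, 57.6 and 42.0 CPM at E13.5 and at 48.0, 48.5 and 45.9 CPM at P7, with overlapping libraries and a difference of -0.11 (95% interval -0.44 to 0.22). Over the 25 alternatives this difference lay between -0.40 and -0.030.

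Among the channel-forming kainate subunits, Grik1 was low at E13.5, with 5.75, 5.40 and 8.90 CPM in brain, and was at 38.2, 35.5 and 30.02 CPM in P7 brain (2.31 ± 0.16, 4.97-fold, adjusted p = 1.03e-07). In cord it went from 13.04, 11.2 and 12.5 CPM to 35.3, 37.2 and 38.4 CPM (1.56 ± 0.16, adjusted p = 2.28e-06). Libraries of the 2 regions overlapped at P7 and not at E13.5.

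Grik3 showed the opposite order of regions. It was at 51.9, 76.8 and 75.1 CPM in E13.5 brain and at 158.0, 158.2 and 166.5 CPM in P7 brain (1.26 ± 0.13, 2.39-fold, adjusted p = 3.05e-06). In cord it went from 38.9, 41.1 and 38.3 CPM to 240.5, 232.3 and 211.9 CPM, and this rise of 2.52 ± 0.13 (5.72-fold, adjusted p = 4.25e-09) was the largest of all 9 subunits there. The smallest called rise in brain and the largest in cord therefore belonged to the same gene.

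Grik2, the subunit most widely used in neuronal kainate receptors, was at 86.8, 94.7 and 108.4 CPM in E13.5 brain and at 100.3, 98.0 and 99.0 CPM in P7 brain. In cord it was at 108.0, 112.2 and 130.1 CPM at E13.5 and at 110.7, 111.4 and 98.9 CPM at P7. Libraries of both ages overlapped, the differences were 0.04 in brain (95% interval -0.18 to 0.26) and -0.12 in cord (-0.34 to 0.10), and these intervals exclude a 2-fold change in either direction. The intervals hold for the deposited scaling. Over the 25 alternatives the difference lay between -0.032 and 0.24 in brain and between -0.46 and -0.043 in cord.

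The high-affinity subunits behaved unlike each other. Grik4 was at 6.84, 8.39 and 8.58 CPM in E13.5 brain and at 41.5, 41.5 and 38.4 CPM in P7 brain (2.29 ± 0.11, 4.87-fold, adjusted p = 4.41e-09). In cord it went from 13.9, 13.1 and 16.0 CPM to 44.3, 41.9 and 45.2 CPM (1.58 ± 0.11, adjusted p = 5.51e-08). Grik5 was at 42.4, 39.3 and 43.5 CPM in E13.5 brain and at 61.8, 60.3 and 70.8 CPM in P7 brain, a difference of 0.61 ± 0.08 (adjusted p = 2.72e-05) under 2-fold. In cord Grik5 was at 59.3, 60.2 and 59.4 CPM at E13.5 and at 67.3, 64.7 and 66.9 CPM at P7 (0.15 ± 0.08, adjusted p = 0.107).

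**Figure D3:**
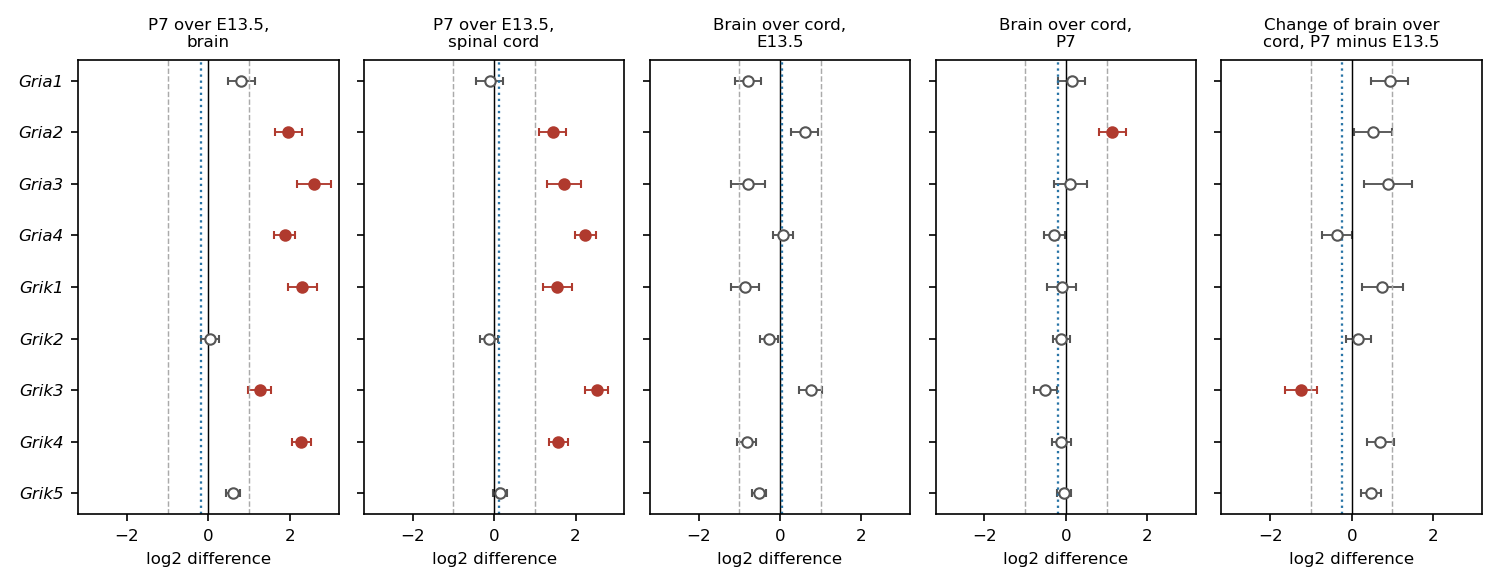
Log2 difference of each subunit in the 5 comparisons, with its 95% interval. Filled red points were called (adjusted p under 0.05 and more than 2-fold, dashed lines), and the dotted blue line is the median of all 18319 genes tested. Of the 9 subunits, 6 were called in each age comparison, 0 between regions at E13.5, 1 at P7 (Gria2) and 1 for the change between ages (Grik3).

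Between brain and cord at E13.5, 0 of the 9 subunits passed both limits of a call in limma, where 8.71% of all genes did. All the same, 7 of 9 had an adjusted p under 0.05, and so had 32.6% of all genes tested. Of these 7, Gria2 (0.61 ± 0.15, adjusted p = 0.00846) and Grik3 (0.76 ± 0.13, adjusted p = 0.000711) were higher in brain. Lower in brain were Gria1 (-0.79 ± 0.15, adjusted p = 0.00161), Gria3 (-0.78 ± 0.19, adjusted p = 0.00792), Grik1 (-0.86 ± 0.16, adjusted p = 0.00139), Grik4 (-0.82 ± 0.11, adjusted p = 0.000116) and Grik5 (-0.51 ± 0.08, adjusted p = 0.000415). In each of the 7 the brain and cord libraries listed above did not overlap (2 higher and 5 lower in brain), as in 20.5% of all genes towards brain and 17.2% towards cord. Gria4 differed by 0.08 (95% interval -0.18 to 0.33) and Grik2 by -0.27 ± 0.10 (adjusted p = 0.0552). The 2-fold limit was close: Gria3 was at -1.07 and called without E13.5 cord replicate 3, and Grik1 at -1.07 and called without E13.5 brain replicate 3. Neuron markers summed to 784 to 963 CPM in E13.5 brain and 827 to 1057 CPM in E13.5 cord, and vascular and leptomeningeal markers to 2581 to 3704 and 5333 to 5791 CPM. Within the neuron list, Nefl (14.4 to 20.7 and 63.9 to 123.5 CPM), Stmn2 and Rbfox3 were higher in cord without overlap, and the others overlapped. OPC markers summed to 821 to 1451 CPM in E13.5 brain and 526 to 803 CPM in E13.5 cord, without overlap. The part of these markers in the subunit differences was not tested.

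At P7 Gria2 was the 1 subunit of 9 called between regions, where 6.62% of all genes were called and 2.27% were called higher in brain. Its lowest P7 brain library was at 1095 CPM and its highest P7 cord library at 540 CPM, and the difference was 1.14 ± 0.15 (2.20-fold, adjusted p = 0.000174), or 1.32 above the median of all genes. Grik3 was lower in brain by an amount under 2-fold (-0.50 ± 0.13, adjusted p = 0.0111). It lay at -0.22 with quantile normalization, where its adjusted p reached its highest value of 0.276. For the other AMPA subunits the differences were 0.14 (Gria1), 0.11 (Gria3) and -0.29 (Gria4, adjusted p = 0.0841). Those of Grik1, Grik2, Grik4 and Grik5 were between -0.11 and -0.05, and all 4 turned positive, at 0.11 to 0.21, with TMM, median-ratio and quantile scaling. Markers of differentiating oligodendrocytes differed most between these groups: Mag was at 87.4, 91.7 and 261.7 CPM in P7 brain and at 2478, 2366 and 1589 CPM in P7 cord. In brain, replicate 3 had the highest Mag and the lowest Gria2 of its group. In cord, replicate 3 had the lowest Mag and a Gria2 level between the other libraries. Pdgfra was at 2640 to 3402 CPM in P7 brain and at 2014 to 2140 CPM in P7 cord. In the study's single-cell data, committed precursors and newly formed oligodendrocytes made up more of the sorted P7 cord cells than of the brain cells. Between P7 OPCs of the regions the study found few or no significant genes, depending on its test. The part of Pdgfra and of the differentiation markers in the Gria2 difference was not tested.

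Whether the brain over cord difference itself shifted between ages was tested within the same fit, as the P7 difference less the E13.5 one. Its sign gives the direction of the shift towards brain or cord, not whether regions grew apart. With the deposited scaling Grik3 was the 1 subunit called (-1.26 ± 0.18, adjusted p = 0.000219), where 16.3% of all genes were called and 9.66% in this direction. Its difference went from 0.76 in favour of brain to -0.50, and the median gene moved by -0.24. Under other scalings the change was smaller but kept its sign, at -0.99 with TMM (adjusted p = 0.00108), -0.93 with median-ratio (adjusted p = 0.00157) and -0.92 with quantile scaling (adjusted p = 0.00188), each just short of 2-fold.

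In the opposite direction, Gria1 (0.93 ± 0.21, adjusted p = 0.00450), Gria3 (0.89 ± 0.27, adjusted p = 0.0204), Grik1 (0.76 ± 0.23, adjusted p = 0.0192), Grik4 (0.71 ± 0.15, adjusted p = 0.00319) and Grik5 (0.46 ± 0.11, adjusted p = 0.00654) had an adjusted p under 0.05, as did 11.1% of all genes in this direction, but were under 2-fold. With TMM, Gria1 (1.19), Gria3 (1.15) and Grik1 (1.01) were called and Grik3 was not. For Gria2 the value was 0.53 ± 0.22 (adjusted p = 0.0707) with the deposited scaling, 0.79 with TMM (adjusted p = 0.00947), 0.86 with median-ratio (adjusted p = 0.00914) and 1.03 with quantile scaling (adjusted p = 0.00260), where it was called. Gria4 was at -0.36 ± 0.17 (adjusted p = 0.0996). Grik2 was at 0.17 ± 0.14 (adjusted p = 0.383) with the deposited scaling and at 0.43 with TMM (adjusted p = 0.0473). It was at 0.50 with median-ratio (adjusted p = 0.0171) and 0.54 with quantile scaling (adjusted p = 0.0201), all under 2-fold. These values use the same 4 groups as the comparisons above.

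**Figure D4:**
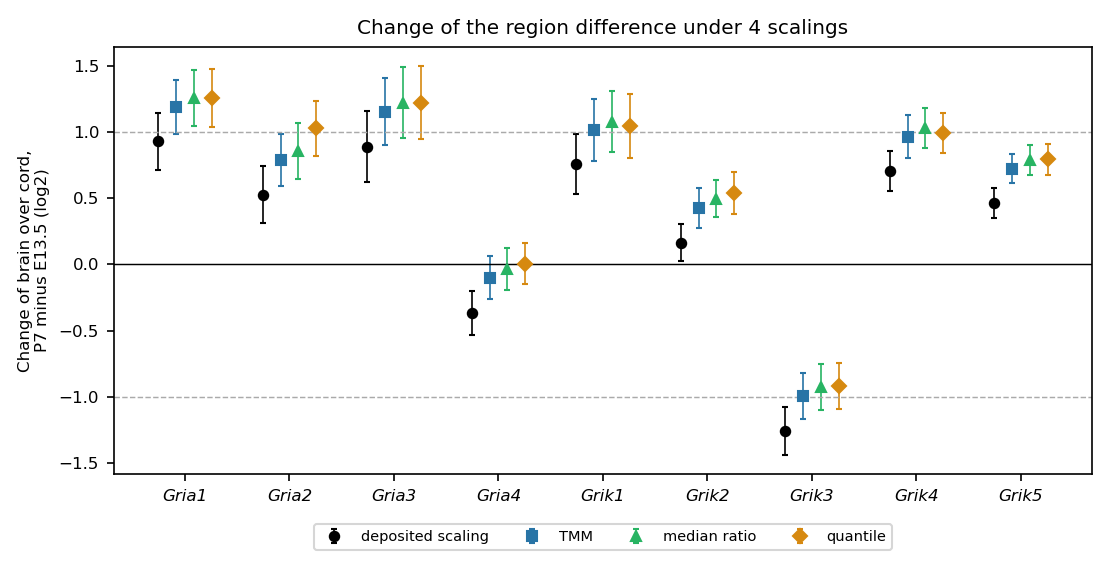
Change of the brain over cord difference between E13.5 and P7 (log2) for each subunit, under the deposited scaling and 3 others, with the SE. Dashed lines mark 2-fold. Grik3 was negative under each of the 4 scalings, from -1.26 to -0.92. Gria1, Gria2, Gria3, Grik1, Grik2, Grik4 and Grik5 were positive under each of them.

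Across the 12 libraries, Grik1 and Grik4 followed each other most closely among the subunits (Pearson r = 0.989 on log2 levels), and Gria4 and Grik3 had r = 0.955. Grik2 had r between -0.447 (Gria2) and 0.380 (Grik5) with the others. As 12 libraries in 4 groups stand behind each r, it reflects mainly the 4 group means. Among 14171 other protein-coding genes, those most like Grik3 were Syt11 (r = 0.997) and Atp10b (0.996), those most like Gria2 were Ranbp9 (0.986) and 0610040J01Rik (0.983), and Otud7a came first for both Grik1 (0.994) and Grik4 (0.997). Those most like Gria4 were Arl8a (0.997) and Svip (0.996), and those most like Gria3 were Pcdhb14 (0.996) and Nalcn (0.992). The first for Gria1 was Cttnbp2 (0.970), for Grik5 Col9a2 (0.977) and for Grik2 Atp8a2 (0.923).

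RefSeq promoter windows (GRCm38.p6, 300 bases around the start of the gene) were found for 6 of the 9 subunits. Those of Gria2 and Grik3 are shown, as the subunits called for region and for its change with age, with the GC box (GGGCGG on either strand) in capitals. The first is at chr3:80802786-80803085 on the minus strand and the second at chr4:125490446-125490745 on the plus strand.
Gria2: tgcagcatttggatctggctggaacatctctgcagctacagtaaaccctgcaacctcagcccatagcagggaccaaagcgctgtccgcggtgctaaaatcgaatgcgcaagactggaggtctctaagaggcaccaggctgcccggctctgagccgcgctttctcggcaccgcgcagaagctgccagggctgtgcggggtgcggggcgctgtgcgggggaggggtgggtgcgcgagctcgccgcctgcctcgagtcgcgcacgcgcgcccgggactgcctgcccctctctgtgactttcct
Grik3: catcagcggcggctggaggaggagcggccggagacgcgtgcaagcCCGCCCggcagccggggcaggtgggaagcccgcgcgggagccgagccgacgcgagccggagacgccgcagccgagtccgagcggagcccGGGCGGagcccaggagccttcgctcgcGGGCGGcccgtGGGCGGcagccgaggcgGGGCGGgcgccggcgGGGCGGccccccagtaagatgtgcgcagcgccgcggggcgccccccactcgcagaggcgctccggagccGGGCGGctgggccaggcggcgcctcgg
The Grik3 window held 7 GC boxes and was 82.0% G and C with 50 CpG dinucleotides, and the Gria2 window held 0 GC boxes and was 65.7% G and C with 26 CpG. A GC box was found in 2 places each in Grik4 and Grik5, in 0 in Gria4 and Grik2, and in at least 1 place in 35.7% of the 32851 windows of all genes, whose median was 52.7% G and C with 7 CpG. No window of the 6 held a TATA box (TATAAA, either strand), which 13.6% of all windows held.

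Genes of proteins that work with these receptors were followed as 6 lists. Of all genes tested, 11% rose and 16.7% fell in brain, and 16.9% rose and 18.2% fell in cord, with medians of -0.19 and 0.12, and the counts below are to be read beside these. Of 17 listed AMPA receptor auxiliary proteins, 16 were tested, 11 rose in brain and 0 fell, and 9 rose and 1 fell in cord. Their medians were 1.34 and 1.501. Cacng4, a TARP, was at 27.2 to 43.4 CPM in E13.5 brain and 171.7 to 205.1 CPM in P7 brain (2.45 ± 0.15, adjusted p = 2.84e-08), and at 30.03 to 34.8 and 126.6 to 150.5 CPM in cord. Frrs1l, needed for receptor assembly, rose by 2.69 ± 0.15 in brain and 3.00 ± 0.15 in cord, and Shisa9 by 2.59 ± 0.15 and 3.30 ± 0.15. Cacng2 (stargazin) was the 1 that fell, from 4.53 to 5.54 CPM in E13.5 cord to 0.496 to 0.864 CPM at P7. Cpt1c, a receptor chaperone, was at 27.8 to 39.0 and 49.3 to 58.3 CPM in E13.5 and P7 brain, under 2-fold. Between regions at P7, Syndig1 (4.12 to 5.95 CPM in brain, 12.3 to 13.7 CPM in cord) and Gsg1l (4.43 to 5.09 and 10.5 to 12.04 CPM) were lower in brain, and no auxiliary gene was called higher there. Cacng5 and Shisa8, both at most 3.56 CPM, were called for the change of the region difference and lost that call under several other settings. The Gsg1l call was lost with TMM, median-ratio and quantile scaling.

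Of the kainate receptor auxiliary genes, Neto1 rose by 2.47 ± 0.27 in brain and 3.01 ± 0.27 in cord, from 1.86 to 9.49 CPM over the E13.5 libraries to 33.1 to 48.4 CPM at P7. Neto2 was at 70.9 to 106.6 CPM at E13.5 and 98.5 to 183.9 CPM at P7, with differences of 0.81 and 0.37 under 2-fold. For the enzymes that edit receptor transcripts, 0 of 3 were called by limma in any comparison, although Adarb1 had an adjusted p of 0.00301 in brain. Adarb1 was at 25.2 to 29.5 CPM in E13.5 brain and 41.9 to 43.0 CPM in P7 brain (0.64 ± 0.15), while Adar was at 54.0 to 70.3 CPM and Adarb2 at 13.99 to 31.8 CPM over all libraries. Of 11 scaffold and trafficking genes, 2 rose in brain (Dlg2 and Akap5), and in cord 2 rose (Akap5 and Epb41l1) and Grip2 fell, with medians of 0.31 and 0.21. Called in either direction were thus 2 and 3 of 11, no larger a share than the 27.7% and 35.1% of all genes. Dlg1 was at 83.9 to 198.3 CPM over all libraries and Nsf at 48.1 to 86.5 CPM, and neither was called. The calls for Epb41l1 and Grip2 were lost under several other settings. Dlg2, which encodes the postsynaptic scaffold PSD-93, was lower in brain at E13.5 (-1.40 ± 0.09, adjusted p = 4.11e-07).

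A further list held secreted C1q-like proteins and cerebellins, the pentraxins that cluster AMPA receptors, and Grid1, a receptor related to the AMPA and kainate families. Of these 10 genes, 7 rose and 1 fell in brain, and 6 rose and 2 fell in cord, with medians of 2.08 and 1.39 (all genes -0.19 and 0.12, with 27.7% and 35.1% called). Grid1 rose by 2.37 ± 0.16 in brain and 2.03 ± 0.16 in cord. C1ql1 went from 1.62 to 3.75 CPM over the E13.5 libraries to 81.3 to 99.5 CPM at P7, and C1ql3 from 1.52 to 3.29 CPM to 45.2 to 79.2 CPM. C1ql2 was at 30.7 to 32.3 CPM in P7 cord and 4.69 to 5.25 CPM in P7 brain, and at no more than 0.238 CPM at E13.5. Cbln1, a cerebellin, fell in both regions, from 5.27 to 8.85 CPM to 2.28 to 2.64 CPM in brain and from 18.0 to 23.8 CPM to 4.47 to 5.18 CPM in cord. Nptx1, a pentraxin, was lower in brain at both ages, at 2.85 to 3.56 against 8.31 to 13.2 CPM at E13.5 and 7.08 to 8.61 against 17.3 to 20.3 CPM at P7, where the call was lost with other scalings. Cbln4 was at most 2.53 CPM in any library.

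Of 6 glutamate transporters, 3 rose and 2 fell in brain, and 2 rose and 2 fell in cord, with medians of 0.59 and -0.18 (all genes -0.19 and 0.12, with 27.7% and 35.1% called). Slc1a1, a plasma membrane transporter, went from 6.41 to 9.81 CPM to 278.2 to 356.2 CPM in brain and from 10.1 to 15.8 CPM to 396.6 to 442.1 CPM in cord. Slc1a2, best known from astrocytes, rose by 2.96 ± 0.17 and 1.53 ± 0.17. Slc1a3 was at 390.9 to 424.1 and 377.1 to 460.0 CPM in E13.5 and P7 brain, and fell in cord by 1.11 ± 0.14. Slc17a6, a vesicular transporter of glutamatergic neurons, fell from 24.6 to 36.0 CPM to 0.959 to 2.09 CPM in brain and from 36.2 to 48.2 CPM to 0.652 to 1.64 CPM in cord. Slc17a7, the vesicular transporter of many cortical neurons, was at 7.84 to 10.2 CPM in P7 brain and at most 0.0617 CPM in P7 cord, and Slc17a8 was at most 4.09 CPM in any library. The neuron markers given above did not all go the way of Slc17a6, and their part in its fall was not tested.

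**Figure D5:**
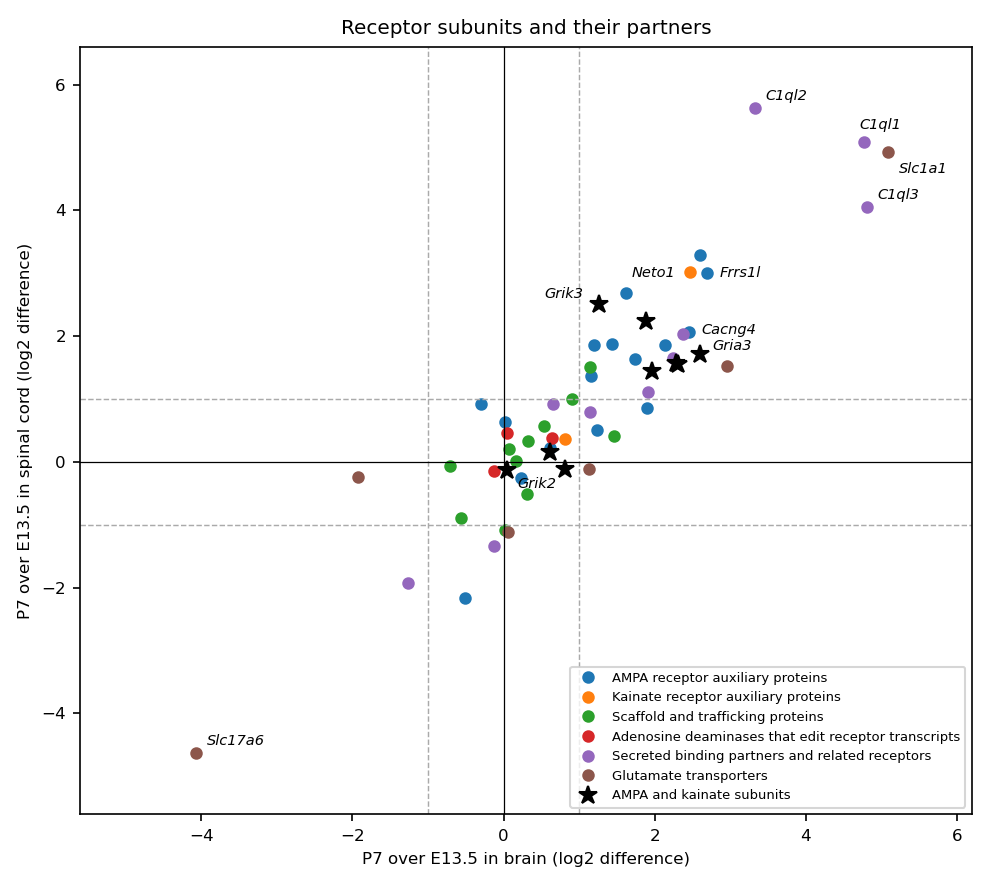
Log2 difference of P7 over E13.5 in brain (horizontal) and in cord (vertical) for each of the 9 subunits (stars) and for the tested genes of 6 partner lists (coloured points). Dashed lines mark 2-fold. Grik3 lies above the diagonal (1.26 in brain, 2.52 in cord), Gria3 below it (2.60 and 1.71) and Grik2 near the origin, and Slc17a6 is the gene lowest on both axes.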

How the data were processed

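Groups were taken from the sample titles of the 12 libraries. Per the study's methods and the labels, stranded total RNA reads were aligned with STAR 2.5.0a to mm10 and counted with featureCounts 1.5.0-p1 per gene of GENCODE M8, with reads of several places shared fractionally and rounded. Whether counting used the strand is not given in the sources used here. The authors deposited CPM values on a linear scale, with each library size multiplied by a factor. In 3 of 12 columns the deposited values sum to more than a plain CPM column can and were handled as a signal on the same scale. Every value was a whole multiple (within 0.01) of what 1 read is worth (100.0% of values), so reads were recovered, and 3 reads correspond to 0.0792 to 0.506 CPM.

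Differences were tested with limma 3.58.1 (mean-variance trend) on log2(CPM + 0.5) of 18319 genes that reached 0.7 CPM in 3 or more libraries, with 1 mean per group over all 12 libraries and Benjamini-Hochberg adjustment over all genes tested. Folds are of CPM + 0.5 and understate changes of low genes. All 9 subunits passed the filter. Libraries are pools of animals, so p-values measure the spread between pools. If P7 replicates 1 and 2 share a pool, they measure in part the spread between libraries of 1 pool. The fit was tested on simulated data with independent libraries and the same dispersion for every gene. The simulation held no outlying library and no pair of unusually close replicates, so it did not cover these features of the real libraries. Alternatives included edgeR 4.0.16, DESeq2 1.42.0 and voom on the recovered reads. On the recovered reads, edgeR's quasi-likelihood test called 6159 of all genes for age in brain, 7501 for age in spinal cord, 2082 between regions at E13.5, 1645 at P7 and 3261 for the change. Symbols, lengths and positions came from GENCODE M21 (46488 of 47069 identifiers had a symbol). Partner genes named are the 3 of highest mean CPM in a list plus, per comparison and direction, up to 2 called genes of at least 1 CPM with the largest change; Tubb3, Gap43 and Mag were picked after their values were seen. Genes most like a subunit are those of highest Pearson r. From the partner lists 1 gene was left out and is not reported here. The members and lists were chosen with earlier results of these data known.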

Additional observations from a re-analysis of the deposited data

Results flagged for a closer look

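The region difference of Grik3 was flagged because it was the 1 subunit called for its change with age, as were 16.3% of all genes tested. Its change was -1.26 ± 0.18 (log2, limma, adjusted p = 0.000219). Grik3 was higher in brain at E13.5 in 3 of 3 libraries and lower in brain at P7 in 3 of 3 libraries. The change was -0.99 with TMM, -0.93 with median-ratio and -0.92 with quantile scaling, each short of 2-fold. In the opposite direction 5 subunits had an adjusted p under 0.05 in limma with the deposited scaling. Relative to the median of all genes the change was -1.02 for Grik3, 1.17 for Gria1 and 1.13 for Gria3. Gria1, Gria3 and Grik1 were called with TMM, median-ratio and quantile scaling. In these groups of 3 libraries, no rule for single outlying samples was used to flag results.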

How the results depend on the processing

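Of 1125 recomputed subunit differences, 1069 kept their direction and their call, 33 gained a call, 3 lost it (Grik3, change between ages, with TMM, median-ratio and quantile scaling, given above) and 20 turned in sign. These numbers include the alternative without the fold limit, which reused the main fit and could add calls but not lose them. The 6 subunits called for age in brain and the 6 in spinal cord stayed called in each of the 25 alternatives, and so did Gria2 between regions at P7. Without the fold limit, 11227, 12822, 5979, 5491 and 7290 genes were called for age in brain, age in spinal cord, region (E13.5), region (P7) and its change, and 7, 2 and 6 subunits for the last 3. The change held 3 subunits with TMM, 4 with median-ratio and 4 with quantile scaling. Over all 25 alternatives, 2201 to 7290 genes were called for the change. Leaving out 1 library gave 0 to 1 subunits between regions at E13.5 and 1 to 3 for the change (Gria1 at 1.04 without E13.5 brain replicate 1, and Gria1 at 1.07 and Gria3 at 1.18 without E13.5 spinal cord replicate 3). Of the 18319 genes, 1541 to 1802 were then called between regions at E13.5 and 2796 to 3817 for the change. Signs turned for differences near 0. Grik2 for age in brain was -0.032 without E13.5 brain replicate 1, and Grik5 for age in spinal cord was -0.15 with quantile scaling. Gria4 between regions at E13.5 was -0.017 with median-ratio and -0.001061 with quantile scaling, and ranged from -0.054 (without E13.5 brain replicate 2) to 0.16 with 1 library left out. At P7 the region differences of Grik1, Grik2, Grik4 and Grik5 were 0.12, 0.11, 0.11 and 0.17 with TMM, 0.13, 0.13, 0.12 and 0.19 with median-ratio and 0.15, 0.17, 0.14 and 0.21 with quantile scaling, where Gria4 was at 0.004344 and its change at 0.005405. The cause of these turns was not tested. With the longest transcript as the length, Gria2 held 56.9%, 38.8%, 57.0% and 36.3% of the AMPA sum and Grik3 24.1%, 11.8%, 29.6% and 36.0% of the kainate sum in E13.5 brain, E13.5 spinal cord, P7 brain and P7 spinal cord. Of 78 calls for partner genes, 19 were lost in at least 1 alternative and none turned in sign. For deviations from the group mean at E13.5, same-numbered brain and spinal cord libraries had r of 0.31, 0.08 and 0.41. Differently numbered ones had r of -0.44 to 0.20. At P7 the values were 0.01, 0.02 and 0.04 for the same number and -0.057 to 0.063 for different numbers. Whether replicate numbers pair the libraries at E13.5 was not tested. The replicate block left the subunit counts at 6, 6, 0, 1 and 1. Averaging replicates 1 and 2 of each P7 group left the same counts.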
